A study of Homo sapiens with 6 samples.

Results

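Replication-dependent histone genes supply the histones that package newly copied DNA. The table of 405 genes that the authors had selected in this comparison was searched for symbols beginning with HIST1H, HIST2H, HIST3H or HIST4H, and 6 genes were found. These were the linker histone gene HIST1H1B (H1 class), the H2B genes HIST1H2BM and HIST2H2BE, the H3 gene HIST1H3I, and the H4 genes HIST1H4H and HIST2H4A. Cluster 1 gave 4 of them and cluster 2 gave 2, and no H2A gene and no gene of clusters 3 or 4 was among them. RefSeq lists 71 protein-coding genes under these old symbols, and those outside the 6 were not analysed here.

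Panc-1, a long-established human line, derives from a carcinoma of the pancreatic duct. Its cells were transfected with pCIG-Gli3T, which carries Gli3T, a dominant-negative repressor form of the Gli factors that act at the end of the hedgehog pathway, or with pCIG as an empty vector. Cells of both groups were grown in serum, were sorted for GFP at 24 h, and thus all carried a GFP vector taken up with a lipid reagent. Each group had 3 Affymetrix arrays, and nothing in the labels says that they came from separate cultures, so every p-value measures the spread between these arrays, which may be technical. The 6 arrays carry values for 32321 probe sets, including 5 of the 6 histone genes, whereas HIST2H4A was read from the authors' selected table alone. Their number limits the precision.

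A nucleosome holds an octamer of H2A, H2B, H3 and H4, and H1 binds the DNA that enters and leaves it. The replication-dependent genes lie in clusters, are transcribed mainly in S phase, and give mRNAs that end in a stem-loop bound by SLBP in place of a poly(A) tail. Some of them, HIST2H2BE included, are also known to give polyadenylated mRNA. Transcription is coordinated by NPAT at histone locus bodies, and each class has typical promoter elements, such as the octamer of H2B genes, which the factor OCT1 binds. Many H2A and H2B genes lie as divergent pairs that share a promoter.

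The stretches of 250 bases before the annotated starts are shown because members of different classes moved in different directions, and members of 1 class did too. They are from RefSeq on GRCh38.p14, which had an entry for 5 of the 6 genes, all but HIST1H3I. The letters run 5′ to 3′ on the gene's own strand, and capitals mark every match, on either strand, to the octamer ATTTGCAT, the H1 box AAACACA, the H4 element GGTCCG, the CCAAT box CCAAT or the TATA box TATAA.
HIST1H1B (chr6:27867589-27867838, minus strand): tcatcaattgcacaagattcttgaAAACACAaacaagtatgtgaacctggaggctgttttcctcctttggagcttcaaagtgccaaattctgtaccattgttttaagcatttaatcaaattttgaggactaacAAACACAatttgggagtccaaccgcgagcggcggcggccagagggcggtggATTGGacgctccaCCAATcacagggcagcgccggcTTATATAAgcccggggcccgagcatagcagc
HIST1H2BM (chr6:27814772-27815021, plus strand): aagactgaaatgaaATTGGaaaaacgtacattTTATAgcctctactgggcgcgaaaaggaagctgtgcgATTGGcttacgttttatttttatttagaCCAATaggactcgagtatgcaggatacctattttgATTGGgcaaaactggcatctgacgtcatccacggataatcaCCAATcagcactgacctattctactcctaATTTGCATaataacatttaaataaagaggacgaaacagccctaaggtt
HIST2H2BE (chr1:149886683-149886932, minus strand): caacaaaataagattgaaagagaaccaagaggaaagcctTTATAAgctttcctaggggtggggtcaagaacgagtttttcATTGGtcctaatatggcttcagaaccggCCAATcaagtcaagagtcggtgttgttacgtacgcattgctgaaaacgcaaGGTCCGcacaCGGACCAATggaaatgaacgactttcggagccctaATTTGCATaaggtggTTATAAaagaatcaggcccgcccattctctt
HIST1H4H (chr6:26285535-26285784, minus strand): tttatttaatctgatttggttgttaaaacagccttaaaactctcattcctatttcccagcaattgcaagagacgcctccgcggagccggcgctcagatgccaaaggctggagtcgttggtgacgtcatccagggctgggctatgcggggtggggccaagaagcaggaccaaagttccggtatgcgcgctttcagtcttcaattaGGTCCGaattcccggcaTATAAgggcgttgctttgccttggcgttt
HIST2H4A (chr1:149832407-149832656, plus strand): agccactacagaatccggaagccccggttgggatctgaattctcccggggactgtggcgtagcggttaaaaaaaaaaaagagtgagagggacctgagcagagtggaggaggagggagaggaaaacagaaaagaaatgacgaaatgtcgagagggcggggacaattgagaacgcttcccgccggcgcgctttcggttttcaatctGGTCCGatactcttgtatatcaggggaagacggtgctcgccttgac

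The 2 H2B stretches both hold the octamer, at 48 to 41 bases before the start in HIST1H2BM and at 46 to 39 bases in HIST2H2BE. The 2 H4 stretches hold the H4 element at the same place, 46 to 41 bases before the start. HIST1H1B has the H1 box in 2 places, ending 220 and 111 bases before the start. CCAAT occurs 5 times before HIST1H2BM, 3 times before HIST2H2BE, 2 times before HIST1H1B, and not in either H4 stretch. HIST2H2BE also has the H4 element, 2 times, and 1 of these overlaps a CCAAT box. Its other overlapping matches, and the overlapping pair in HIST1H1B, are TATA boxes read on both strands.

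Among all 35116 promoters of the same length in the RefSeq table, 1.63% hold the octamer, 4.82% the H1 box and 9.43% the H4 element. In the histone family the octamer was found in 15 of 20 H2B promoters and in 11 of 16 H2A promoters, against 1 of 15 for H3 and 0 of 13 for H4. The H1 box was found in 6 of 6 H1 promoters and in 0 of the promoters of the other classes. The H4 element was found in 12 of 13 H4 promoters in 1 of 20 for H2B, that of HIST2H2BE, in 1 of 16 for H2A and in 1 of 15 for H3. The CCAAT box occurs in 32.0% of all promoters and in 3 of 13 H4 promoters, and in every promoter of the other histone classes searched. TATAA occurs in 18.9% of all promoters and in 64 of the 70 histone promoters, with HIST2H4A among the exceptions. These matches describe letters and are no evidence of binding.

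**Figure D1:**
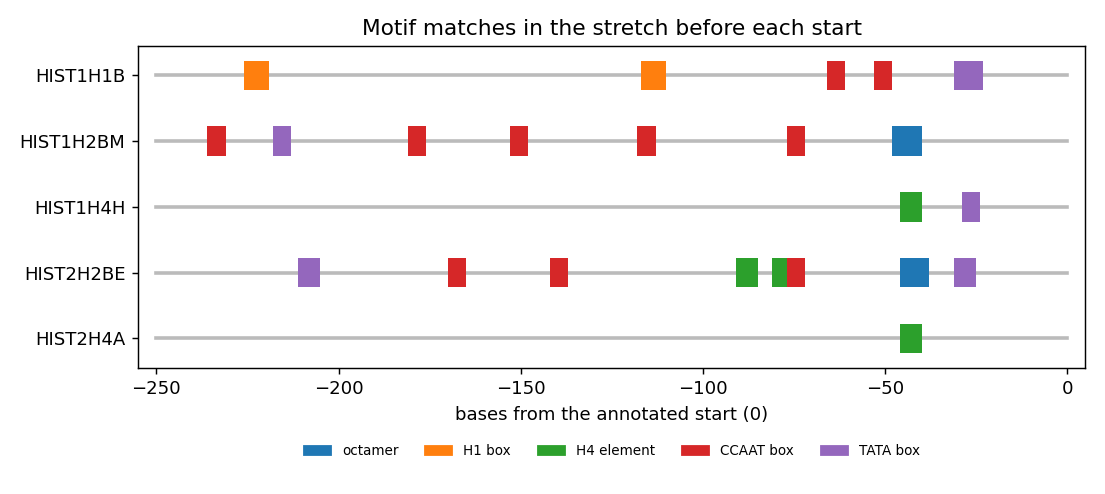
Motif matches in the 250 bases before the annotated start of 5 histone genes, plotted as distance from the start, 1 row per gene and 1 colour per motif. The octamer lies at nearly the same distance in HIST1H2BM and HIST2H2BE, and the H4 element lies at the same distance in HIST1H4H and HIST2H4A.

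The targeted pathway was checked first. GLI3 (probe set 8139212), from whose gene Gli3T derives, read 8.00, 7.92 and 7.71 log2 in the arrays labelled Gli3T, against 9.20, 9.12 and 9.31 in the arrays labelled empty vector. The difference was -1.34 log2 (limma, adjusted p = 0.00884 over all probe sets). GLI3 signal was thus lower, not higher, in the arrays whose label names the GLI3-derived construct, and every direction given here rests on the labels. Which part of GLI3 the probes cover, and whether they detect the transfected sequence, was not known here. PTCH1 (probe set 8162533), the hedgehog receptor gene and a textbook Gli target, was added after its values were seen. It read 8.99, 8.91 and 9.15 log2 in the arrays labelled Gli3T, against 8.28, 7.94 and 8.10 in the arrays labelled empty vector. A target that Gli factors activate was thus higher with the label of the repressor, by 0.91 log2 (limma, adjusted p = 0.0224). The array labelled empty vector replicate 1 stood apart from the rest, with correlations of 0.980 to 0.985 with the other arrays, and the arrays labelled Gli3T correlated at up to 0.996 with each other. The median SD of a probe set was 0.077 log2 in the arrays labelled Gli3T and 0.18 in those labelled empty vector. None of the fixed markers of ductal epithelium, acinar cells, leukocytes, fibroblasts or endothelium was among the named probe sets, so the cell type was not checked here.

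Of the 5 histone genes with values on all arrays, the arrays labelled Gli3T had higher levels of the H1, H3 and cluster 1 H2B genes, and lower levels of the cluster 1 H4 gene and the cluster 2 H2B gene. The other H4 gene, HIST2H4A, had a lower mean as well. All 5 passed limma's test at an adjusted p of 0.05, 3 higher and 2 lower. Across all probe sets 1.4% were called higher and 1.06% lower, 2.47% in all, but the authors had chosen these genes for a difference in the same comparison, so nothing is read from that contrast and the adjusted p-values below are descriptions. None of the 5 was called when any single array labelled Gli3T was left out, and without empty vector replicate 3 only HIST1H4H was. Of all 32321 probe sets, 0, 1 and 0 were called without Gli3T replicates 1, 2 and 3, and 69 without empty vector replicate 3. The loss of calls was thus not particular to histone genes. In these bulk samples, a change in the share of cells that express a gene and a change in its mRNA per cell cannot be told apart.

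HIST1H1B (now H1-5, probe set 8124527) encodes the linker histone H1.5. Its level was 11.05, 10.98 and 11.09 log2 in the arrays labelled Gli3T, against 9.46, 10.31 and 9.98 in the arrays labelled empty vector. The arrays labelled Gli3T lay close together and all above those labelled empty vector, which spread over 0.84 log2, with replicate 1 lowest. The difference was 1.12 ± 0.25 log2 (SE from the arrays' SDs, n = 3 each), or 2.17-fold (limma, adjusted p = 0.0445). By size in either direction it ranked 244th among all 32321 probe sets, and 28th among the rises if the labels hold. Without empty vector replicate 1 it was 0.89 log2.

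HIST1H3I (now H3C11, probe set 8124531) encodes the core histone H3.1. It read 13.19, 13.20 and 13.19 log2 in the arrays labelled Gli3T, against 12.13, 12.62 and 12.26 in the arrays labelled empty vector. The groups were separated by a gap of 0.57 log2, and the arrays labelled Gli3T differed among themselves by 0.01. The difference was 0.86 ± 0.15 log2 (SE, n = 3 each), or 1.81-fold (limma, adjusted p = 0.0323). The gene lies next to HIST1H1B in the RefSeq gene order, with 0 genes between them.

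HIST1H2BM (now H2BC14, probe set 8117594) encodes a core histone H2B. It read 13.20, 13.24 and 13.36 log2 in the arrays labelled Gli3T, against 12.37, 12.76 and 12.42 in the arrays labelled empty vector. The groups did not overlap, with a gap of 0.44 log2, the narrowest of the 6 genes. The difference was 0.75 ± 0.13 log2 (SE, n = 3 each), or 1.68-fold (limma, adjusted p = 0.0374). Between HIST1H2BM and HIST1H1B lie 6 genes, and all 6 carry histone symbols. The higher genes were thus close neighbours on chromosome 6.

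HIST2H2BE (now H2BC21, probe set 7919637) also encodes an H2B protein, from the cluster on chromosome 1. It read 9.59, 9.21 and 9.71 log2 in the arrays labelled Gli3T, against 10.73, 10.68 and 10.56 in the arrays labelled empty vector. Here the arrays labelled Gli3T were the more spread ones, over 0.49 log2, with replicate 2 lowest, and they all lay below the others. The difference was -1.15 ± 0.16 log2 (SE, n = 3 each), or 2.22-fold (limma, adjusted p = 0.0196). Its direction was opposite to that of HIST1H2BM, the other H2B gene. Its RefSeq gene spans 2224 bases, against 396 to 797 for the other 5 histone genes, and which part of it the probe set covers was not known here.

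HIST1H4H (now H4C8, probe set 8124448) is 1 of many genes for the same H4 protein. It read 10.12, 10.07 and 10.21 log2 in the arrays labelled Gli3T, against 11.43, 11.37 and 11.64 in the arrays labelled empty vector. The gap between the groups, 1.16 log2, was the widest of the 6 genes and several times the range within either group. The difference was -1.34 ± 0.09 log2 (SE, n = 3 each), or 2.54-fold (limma, adjusted p = 0.00884). By size it ranked 132nd among all probe sets, beside GLI3 at 133rd. HIST1H4H is in cluster 1 like the higher genes, but 170 genes lie between it and HIST1H2BM, of which 11 carry histone symbols.

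HIST2H4A (now H4C14, probe set 7905067) encodes the same H4 protein from cluster 2. In the authors' deposited table it read 9.72 and 9.72 log2 in replicates 1 and 2 labelled Gli3T, against 10.66, 10.56 and 10.71 in the arrays labelled empty vector. No value of Gli3T replicate 3 was used. In this row it would fall beyond the sixth sample column, and cells there were not checked. The groups did not overlap, and the difference was -0.93 ± 0.04 log2 (SE, n = 2 and 3), or 1.90-fold, without a test. HIST2H4A and HIST2H2BE lie near each other on chromosome 1, with 7 genes between them, all 7 with histone symbols. A nearly identical H4 copy, HIST2H4B, is known in the same cluster, and signal from copies of H2B, H3 or H4 genes may be shared between probe sets, which makes the assignment to single genes uncertain.

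**Figure D2:**
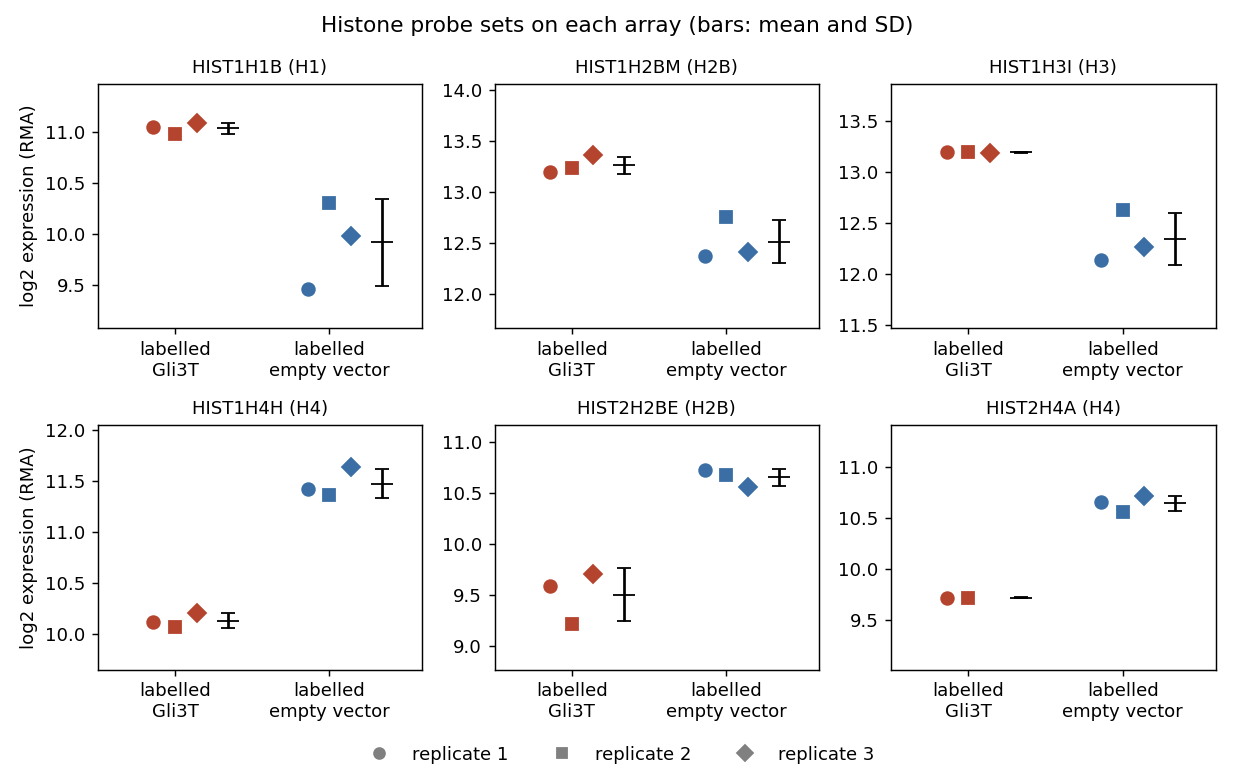
Log2 expression of the 6 histone genes on each array, with symbols for the replicates and a bar for the mean and SD of each group. In every panel the arrays labelled Gli3T are separated from those labelled empty vector, above them for HIST1H1B, HIST1H2BM and HIST1H3I and below them for HIST1H4H, HIST2H2BE and HIST2H4A (2 arrays labelled Gli3T).

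All 6 genes thus had groups that did not overlap, HIST2H4A with only 2 arrays labelled Gli3T. The shares that follow are for 3 arrays in each group, so they are no like measure for HIST2H4A. Over all probe sets, 24.4% had groups that did not overlap, 11.4% with the arrays labelled Gli3T higher and 13% with them lower. The median difference over all probe sets was -0.05 log2, with quartiles of -0.14 and 0.06. All 6 histone differences lay outside this range, as selected genes would. Among all probe sets, 0.755% had a difference at least as large in size as that of HIST1H1B, 1.76% as that of HIST1H3I and 2.61% as that of HIST1H2BM. The shares were 0.693% for HIST2H2BE and 0.408% for HIST1H4H.

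**Figure D3:**
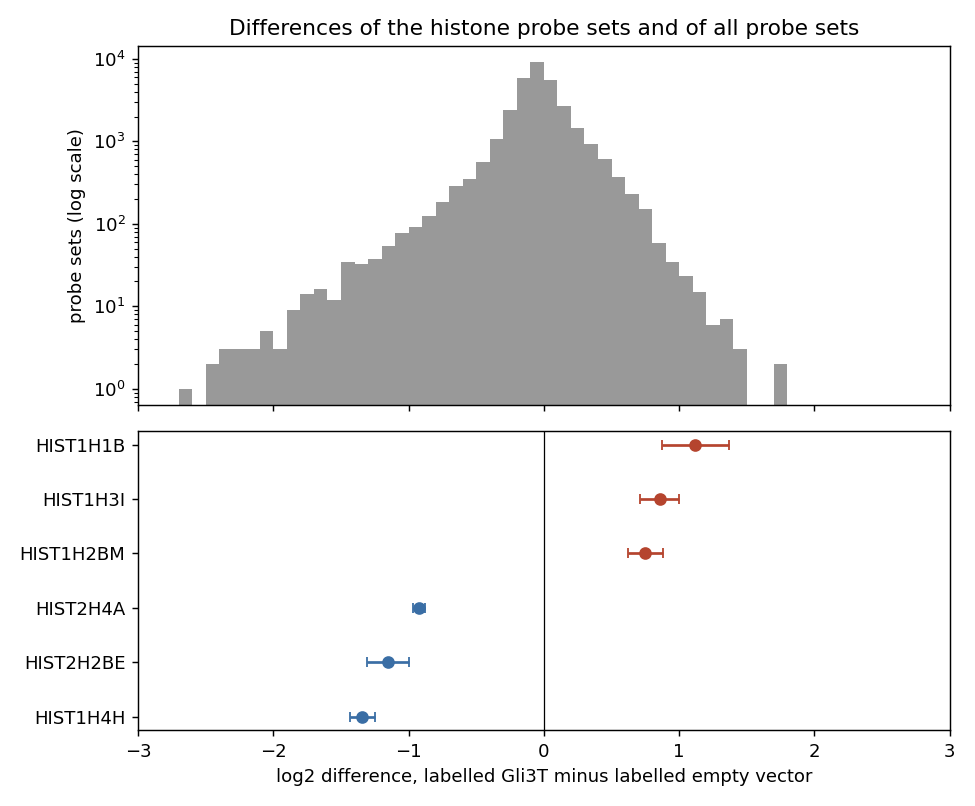
Upper panel, the number of probe sets (log scale) by log2 difference, arrays labelled Gli3T minus arrays labelled empty vector, in bins of 0.1. Lower panel, the differences of the 6 histone genes with their SE, from -1.34 for HIST1H4H to 1.12 for HIST1H1B.

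The 3 higher genes varied together among the arrays labelled empty vector. All 3 were lowest in empty vector replicate 1 and highest in replicate 2 among the arrays so labelled. Relative to each gene's empty-vector mean, they averaged -0.27 log2 in replicate 1, 0.31 in replicate 2 and -0.04 in replicate 3. After removal of the group means, HIST1H3I correlated at 0.92 with HIST1H2BM and at 0.91 with HIST1H1B over the 6 arrays. HIST1H1B and HIST1H2BM correlated at 0.82. These values rest mostly on the arrays labelled empty vector, where the SDs were larger (0.25 against 0.005 log2 for HIST1H3I). In the arrays labelled Gli3T the 3 genes did not vary together, and HIST1H3I was highest in replicate 2, where HIST1H1B was lowest. This order of the empty-vector arrays was not particular to histone genes, since 114 of the 259 other named genes that were higher showed it (44.0%), against 15.3% of all probe sets. The lower histone genes did not show it, and neither did most other named genes that were lower (16 of 134 showed it, 11.9%). HIST1H4H and HIST2H2BE correlated at 0.15 with each other, and at -0.42 to 0.21 with the higher genes. In empty vector replicate 2 the 3 lower genes averaged -0.06 log2 from their empty-vector means. These correlations describe 6 arrays that share normalisation and carry no test, and the part of array quality in them was not tested.

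Leaving out 1 array moved the size most for HIST1H1B. It ranged from 0.89 log2 without empty vector replicate 1 to 1.31 without replicate 2, and HIST1H3I from 0.75 to 1.00 for the same arrays. HIST1H2BM ranged from 0.68 to 0.87 likewise. HIST1H4H ranged from -1.40 to -1.26, and HIST2H2BE from -1.25 without Gli3T replicate 3 to -1.01 without Gli3T replicate 2. No direction could turn, since the groups did not overlap.

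**Figure D4:**
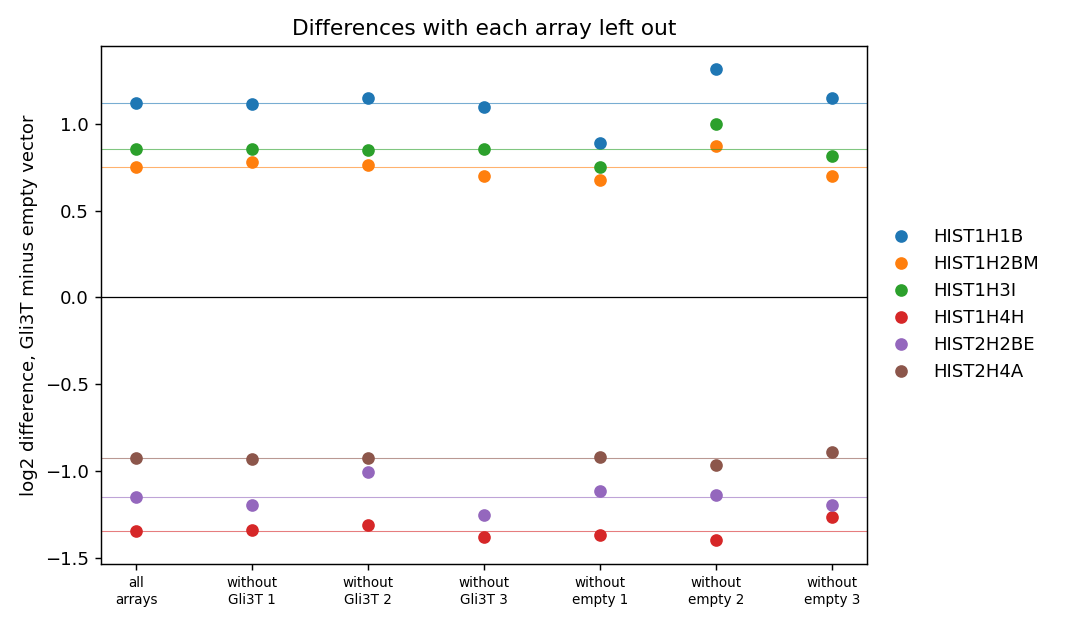
Log2 difference of each histone gene, arrays labelled Gli3T minus arrays labelled empty vector, with all arrays and with each array left out; horizontal lines mark the value with all arrays. HIST1H1B moves most, between 0.89 and 1.31, when empty vector replicate 1 or 2 is left out.

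Other genes of histone supply were sought in fixed lists, among the 398 probe sets that could be named. Of 16 histone chaperone genes 1 was named there, HJURP, which loads the centromeric variant CENP-A. Its level was higher with the Gli3T label by 0.67 log2 (limma, adjusted p = 0.0218). Of 21 genes of G2 and mitosis 2 were named and both were higher, the kinase gene CDK1 by 0.85 log2 (limma, adjusted p = 0.0495) and the ubiquitin-conjugating enzyme gene UBE2C by 0.74 log2 (adjusted p = 0.0287). Of the 14 factors of histone transcription and mRNA processing, the 12 replication-independent variants and the 35 S phase genes, 0 were among the named probe sets. They were therefore not analysed here, and nothing is said of their levels. All named genes come from the authors' selection, so these counts describe that selection. Of the 398 named probe sets, 262 were higher and 136 lower, so nothing is read from the direction of these few genes.

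The named genes outside the family whose levels were most like those of the histone genes were found by Pearson correlation over the 6 arrays, among 356 probe sets. For HIST1H1B these were TBX18 (r = 0.999), a T-box transcription factor gene, and SNX33 (0.998), a sorting nexin gene. For HIST1H2BM they were SIGIRR (0.996), an immunoglobulin-domain regulator of interleukin receptors, and TLCD1 (0.995). For HIST1H3I they were ABHD6 (0.998), a monoacylglycerol hydrolase gene, and again SIGIRR (0.997). For HIST1H4H they were PEA15 (0.999), a death-effector-domain protein gene, and the immediate early gene EGR1 (0.999). For HIST2H2BE they were the ribosomal protein gene RPL27A (0.983) and the splicing gene BUD31 (0.981). All these genes were selected for the same group difference, a difference that all 6 points of each correlation share.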

How the data were processed

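Both deposited tables hold log2 values, for which the authors used RMA, oligo and limma, per the submitters' processing notes, without versions. RMA removes background, scales the arrays to each other and gives 1 value per probe set. The sources used here do not give the array annotation, the genome build or the authors' limits for selecting genes. The value table held 32321 probe sets and the authors' selection 405 genes, of which 398 were found in both; only these could be named. In 139 rows of the selected table the first sample cell was at most 1.0 and the row ran on by 1 cell. Read 1 cell to the left, all 135 such rows present in the value table matched it within 0.05 log2 in 5 arrays. Ordinary rows matched as headed in 262 of 263 rows for the first 5 sample columns and in 10 for the sixth, which was not used for ordinary rows. In the rows that ran on, the sixth column held Gli3T replicate 2, and HIST2H4A was read from it for that array. Another 1 column of values had no header and was not used.

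Groups came from the sample titles. limma 3.58.1 in R 4.3.3 compared all 6 arrays, with Benjamini-Hochberg adjustment over all probe sets and a threshold of 0.05; it was tested on simulated data. Means, SDs and standard errors were computed per gene, for HIST2H4A from the selected table. Python 3.11.15, pandas 2.3.3 and matplotlib 3.10.9 were used. Symbols were updated through RefSeq (GRCh38.p14), where all 6 histone genes matched. The members, lists and tests were chosen with earlier results of these data known. Named were all members, GLI3, PTCH1 (added later), up to 4 called genes per list, and for each member with array values the 2 most correlated genes whose mean was at or above the median of all probe sets. The planned choice of up to 10 called family genes outside the 6 could name none, because only genes of the authors' selection could be named. Alternatives changed the model, normalization, filter, threshold, annotation and source, and left out each array.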

Additional observations from a re-analysis of the deposited data

How the results depend on the processing

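The count of 798 called probe sets was 1292 with a mean-variance trend, 7104 with array weights, 240 with the replicate block, 31 at an adjusted p of 0.01 and 398 over named probe sets alone, where every one had been selected. It ran from 0 to 2178 with 1 array left out: 0, 1 and 0 without Gli3T replicates 1, 2 and 3 (with 3471, 3751 and 3469 probe sets at an unadjusted p under 0.05), and 2178, 548 and 69 without empty vector replicates 1, 2 and 3. Of the histone genes, 3 called higher and 2 called lower became 0 and 2 with the replicate block and 0 and 1 at an adjusted p of 0.01; with 1 array left out the counts ran from 0 to 3 and from 0 to 2. With the replicate block the differences were unchanged by construction, at 1.12 for HIST1H1B, 0.75 for HIST1H2BM and 0.86 for HIST1H3I, but these were no longer called (limma, adjusted p = 0.0596, 0.0747 and 0.0587). Deviations of same-numbered arrays correlated at -0.30, -0.14 and 0.04. With 3 arrays per group this cannot decide whether the numbers pair the arrays. With each array centred on its median HIST1H1B was 1.18 (limma, adjusted p = 0.0578). With array weights, empty vector replicates 1, 2 and 3 had weights of 0.13, 4.46 and 0.37, so replicate 2 dominated the empty-vector mean. The differences were then all smaller in size. They were 0.79 for HIST1H1B, 0.56 for HIST1H2BM, 0.61 for HIST1H3I, -1.23 for HIST1H4H and -1.10 for HIST2H2BE, and all 5 were called. For the 3 higher genes and HIST1H4H these sizes lie below the ranges that follow. With 1 array left out the differences ran from 0.89 to 1.31 for HIST1H1B, 0.68 to 0.87 for HIST1H2BM, 0.75 to 1.00 for HIST1H3I, -1.40 to -1.26 for HIST1H4H, -1.25 to -1.01 for HIST2H2BE and -0.97 to -0.89 for HIST2H4A. Over all alternatives the adjusted p ran up to 0.202, 0.185, 0.167, 0.0983 and 0.12 for the first 5 of these in that order. Of 75 member values under the alternatives, 52 kept direction and call or moved by less than 1 SD, 23 lost the call and 0 reversed. The 52 include HIST2H4A and the authors' selected table, where no call was made. They also include the fit over named probe sets alone, where all 398 were called. The adjusted p of 0.01, at which only HIST1H4H was still called, is not among the 75. The cause was not tested. Signal over background was not known.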

Other observations

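The sixth sample column of the selected table, headed as Gli3T replicate 3, did not go with its rows for the higher histone genes. It held 11.25 for HIST1H1B, 10.23 for HIST1H2BM and 10.07 for HIST1H3I, where the value table has 11.09, 13.36 and 13.19 on that array. Read as headed, these cells would put Gli3T replicate 3 below the empty-vector arrays for HIST1H2BM and HIST1H3I. For HIST1H4H, HIST2H2BE and HIST2H4A the first sample cell held 0.00836, 0.0181 and 0.00836, which are no log2 levels. What those cells measure was not known here.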
